A study of Mus musculus with 10 samples.

Results

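Extracellular matrix and fibroblast genes were followed through organoids of the mouse oviduct. The set was a list of 48 gene symbols covering interstitial collagens, basement membrane components, matrix glycoproteins and proteoglycans, lysyl oxidases, matrix proteases with their inhibitors, and mesenchymal cell markers, and all 48 were found by symbol among the 54152 lines of the expression table. The members were picked by gene name and not by a threshold on measured values, but with earlier results of these data known. The organoids, of which 10 libraries were sequenced, grew in Matrigel from dispersed epithelial cells of the oviduct isthmus. PgrKO organoids came from PgrCre/+ Cdc42 f/f mice, in which Cre made from the progesterone receptor locus acts on the floxed Cdc42 gene in cells that use that locus. AdKO organoids were Cdc42 f/f organoids infected in culture with Ad5-CMV-Cre, an adenovirus that carries Cre. F/F organoids were Cdc42 f/f without Cre, so that all groups carried the floxed allele by their tissue labels. The genotype labels of F/F_Con replicate 2 and of F/F_Diff replicates 1 and 2 name Cdc43, Cdc44 and Cdc45 in place of Cdc42, and these 3 of the 4 F/F libraries were grouped by their titles. Each genotype was sampled differentiated (Diff), after 6 days with 10 nM estrogen (E2) and 1 µM of the Notch inhibitor DBZ, and undifferentiated (Con). PgrKO_Diff, PgrKO_Con, F/F_Diff and F/F_Con had 2 libraries each. AdKO_Diff and AdKO_Con had 1 each, whose spread was taken to be that of the other groups. The labels do not say whether replicate libraries came from separate mice or cultures, so the p-values measure the spread between these libraries, which may be technical. Nor do they say whether the Diff and Con libraries of 1 number share a mouse or culture, and tests over both states count all libraries as independent.

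Interstitial collagens such as types I, III, V and VI are made mainly by fibroblasts and form the fibrils and filaments of connective tissue. Basement membranes are sheets under epithelia, built from laminin trimers and a type IV collagen network that nidogens and perlecan join, and epithelial cells make a large share of their laminins. In the oviduct a mucosal epithelium rests on such a sheet above a stroma of fibroblasts, vessels and smooth muscle.

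Levels are FPKM, which correct fragment counts for exon length and for the size of the library, and differences are between group means of log2(FPKM + 1), which understates the change of genes near 0. A single limma fit of the 10 libraries tested the 15816 genes whose mean reached 1 FPKM in any group, and a gene passed at a Benjamini-Hochberg adjusted p under 0.05. SE is the standard error of a difference from this fit. Of the 48 members 45 were tested, and Col12a1, Lama1 and Eln stayed below 1 FPKM in the mean of every group. There were 34 members that reached that mean in an F/F or AdKO group. The other 11 (Col3a1, Col5a1, Col6a2, Nid2, Fbn1, Dcn, Lum, Postn, Lox, Thy1 and Pdgfrb) were tested through PgrKO groups alone, where they had to be higher. Counts and medians of members, and the tests and overlaps of these 11, are therefore given as description. The same filter applied to the other gene lists, whose counts and medians are description too, as are the tests of such genes. Their genes tested through PgrKO groups alone are named with each list. The libraries held 11744271 to 17330672 reads, recovered from the FPKM values, and 12846 to 13567 genes at 1 FPKM. Cdc42, counted over all its exons, was at 104 to 134 FPKM in PgrKO, 87.9 and 81.6 FPKM in AdKO and 118 to 133 FPKM in F/F libraries. A value over the whole gene does not measure the deleted stretch, so it does not check the genotype labels. Epcam, an epithelial adhesion molecule, was at 226 to 342 FPKM in PgrKO, 256 and 265 FPKM in AdKO and 204 to 379.8 FPKM in F/F libraries. Cdh1, the epithelial cadherin, was at 185 to 270.1 FPKM in PgrKO, 234 and 184 FPKM in AdKO and 159 to 219 FPKM in F/F libraries. Of 10 epithelial markers, 2 were higher and 0 lower in PgrKO than in F/F over both states, against 13.7% and 16% of all genes tested. They were Cldn7, at 174 to 251 FPKM in PgrKO and 98.5 to 141 FPKM in F/F libraries, and Ovgp1. Ovgp1 overlapped, at 1018 to 3403 FPKM in PgrKO and 91.9 to 3822 FPKM in F/F libraries. Krt18 did not pass, at 390 to 575 FPKM in PgrKO and 523 to 885 FPKM in F/F libraries.

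Over both states, 27 of the 45 members tested were higher and 1 was lower in organoids labelled PgrKO than in F/F organoids. Among all genes tested, 13.7% were higher, 16% lower and 29.6% changed either way in this comparison. In bulk RNA, fewer cells of a type and less RNA per cell cannot be told apart. Of the 34 members at 1 FPKM outside PgrKO, 18 were higher and 1 lower, and of the 11 others 9 were higher. The median difference of the 45 members was 1.47, against 0.01 over all genes tested. All 4 PgrKO libraries were above all 4 F/F libraries for 22 members, against 13% of all genes tested, and above the other 6 libraries for 21 of them, against 6.27% of all genes tested. Col1a1, Col1a2, Col3a1, Col5a1 and Col6a1 to Col6a3 were among the 21, as were Col4a1, Col4a2 and Nid2 of the basement membrane. So were all of the 11 members tested through PgrKO groups alone except Lum. These had to be higher in PgrKO, so the counts of 22 and 21 are description. For 0 members were all 4 PgrKO libraries below all 4 F/F libraries, against 10.3% of all genes tested. The number of members passing ranged from 20 to 30 when any 1 F/F or PgrKO library was left out.

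**Figure D1:**
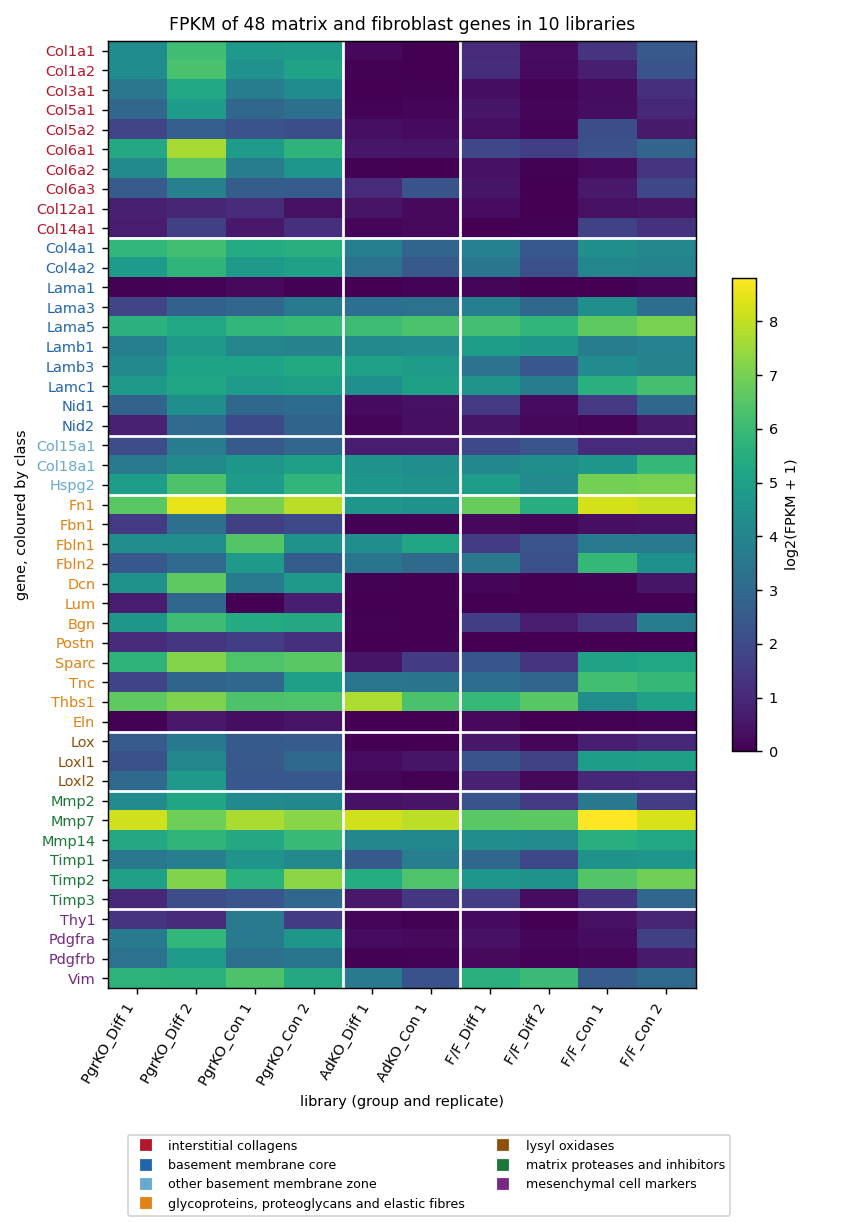
Heat map of log2(FPKM + 1) for the 48 members (down the page, names coloured by class) in the 10 libraries (across, by group and replicate). Interstitial collagens such as Col1a1, at 18.5 to 67.6 FPKM in PgrKO and at most 4.52 FPKM elsewhere, are bright in the 4 PgrKO columns and dark in the AdKO and F/F columns, whereas Lama5, at 37.6 to 132 FPKM, is bright in all 10.

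In differentiated organoids 25 of 45 members were higher and 0 lower in PgrKO_Diff than in F/F_Diff, where 11.7% of all genes tested were higher, 15.4% lower and 27.1% changed either way. Of the 25, 17 belonged to the 34 members at 1 FPKM outside PgrKO. Leaving out F/F_Diff replicate 2 gave 8 members, the lowest count of the 8 fits that left out 1 library. Among undifferentiated organoids, Vim was the single member to pass in PgrKO_Con against F/F_Con, where 0.266% of all genes tested were higher, 0.354% lower and 0.62% changed either way. An unadjusted p under 0.05 was reached there by 27 of the 45 members and by 3462 of the 15816 genes. With 1 library left out, Vim passed in 0 of 8 fits (highest adjusted p 0.209 with limma), while 4 other members or fewer passed in each.

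The 10 interstitial collagen genes encode the chains of fibrillar types I, III and V, of the beaded filaments of type VI, and of types XII and XIV, which decorate fibrils. Of the 9 tested, 8 were higher in PgrKO than in F/F over both states and 0 lower, against 13.7% and 16% of all genes tested. Col3a1, Col5a1 and Col6a2 were tested through PgrKO groups alone, where they had to be higher. The median difference was 3.70, or 3.34 for all 10 without the filter on low values. Their summed level was 119 and 522 FPKM in PgrKO_Diff and 116 and 174 FPKM in PgrKO_Con, 2.63 FPKM in AdKO_Diff and 5.0 FPKM in AdKO_Con, and 6.95 and 2.81 FPKM in F/F_Diff and 12.8 and 23.6 FPKM in F/F_Con.

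Col1a1, the alpha-1 chain of type I collagen, was at 18.5 and 67.6 FPKM in PgrKO_Diff and 26.1 and 28.1 FPKM in PgrKO_Con, 0.141 FPKM in AdKO_Diff and 0.0126 FPKM in AdKO_Con, and 1.15 and 0.225 FPKM in F/F_Diff and 1.52 and 4.52 FPKM in F/F_Con. The lowest PgrKO library was above the highest of the other 6. Over both states it was 3.70 higher in PgrKO than in F/F (SE 0.47, adjusted p = 0.00565). Col1a2, its partner chain, was at 18.4 and 76.6 FPKM in PgrKO_Diff and 21.2 and 32.7 FPKM in PgrKO_Con, 0.0272 FPKM in AdKO_Diff and 0.0133 FPKM in AdKO_Con, and 1.21 and 0.189 FPKM in F/F_Diff and 0.688 and 3.84 FPKM in F/F_Con. It was 3.92 higher in PgrKO than in F/F over both states (SE 0.56, adjusted p = 0.00717), again with no overlap. Col1a1 and Col1a2, whose genes lie on chromosomes 11 and 6, had a ratio of their FPKM of 0.859 to 1.23 in the PgrKO libraries. That ratio was 0.951 to 2.2 in F/F libraries, where the levels were low.

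The promoter window of Col1a2 is shown because its gene carries the type I pattern and no window of Col1a1 was matched. Windows run from 250 bases before to 50 bases after the RefSeq start on GRCm38.p6, the assembly of mm10, and 29 of the 48 members had at least 1, giving 36 windows. Capitals mark CCAAT on either strand.
Col1a2, chr6:4505368-4505667, plus strand: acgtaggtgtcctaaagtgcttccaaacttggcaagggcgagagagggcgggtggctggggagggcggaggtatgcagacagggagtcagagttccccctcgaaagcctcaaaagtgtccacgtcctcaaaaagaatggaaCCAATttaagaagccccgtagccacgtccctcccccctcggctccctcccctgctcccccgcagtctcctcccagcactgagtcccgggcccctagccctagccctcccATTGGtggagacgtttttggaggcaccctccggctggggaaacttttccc
The window holds CCAAT 2 times and TATAAA 0 times. CCAAT, searched on both strands, occurred in 37.4% and TATAAA in 13.6% of 32851 promoter windows of the same length, and in windows of 12 and 5 of the 29 members. Those with TATAAA were Col3a1, Postn, Tnc, Vim and Mmp7. GGGCGG occurred in 35.7% of all windows and in those of 19 members, and TGANTCA in 7.81% of all windows and in those of Col6a1 and Mmp7. A match describes the letters and is not a site of binding.

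Col3a1, the type III chain of pliable tissues, was at 10.4 and 37.2 FPKM in PgrKO_Diff and 12.4 and 18.3 FPKM in PgrKO_Con, 0 FPKM in AdKO_Diff and 0.0337 FPKM in AdKO_Con, and 0.258 and 0.0502 FPKM in F/F_Diff and 0.222 and 1.33 FPKM in F/F_Con. It was 3.72 higher in PgrKO than in F/F over both states (SE 0.43, adjusted p = 0.00506), and the 0 reads in AdKO_Diff allowed up to 0.0258 FPKM (3 reads), for counting error alone. Col6a1, which makes type VI filaments with Col6a2 and Col6a3, had the highest mean FPKM of the class. It was at 38.9 and 200.3 FPKM in PgrKO_Diff and 27.3 and 51.9 FPKM in PgrKO_Con, 0.463 FPKM in AdKO_Diff and 0.415 FPKM in AdKO_Con, and 2.7 and 2.08 FPKM in F/F_Diff and 3.55 and 6.34 FPKM in F/F_Con. It was 3.74 higher in PgrKO than in F/F over both states (SE 0.53, adjusted p = 0.00721). PgrKO_Diff replicate 2 stood highest for Col1a1, Col1a2, Col3a1 and Col6a1, and the lowest PgrKO library of each was still above every F/F and AdKO library.

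Proportions of the type VI chains were not tested between genotypes. Col6a1 was 2.16 to 2.25 times the level of Col6a2 in PgrKO libraries and 4.23 to 46.9 times in F/F libraries, where Col6a2 was at 0.0444 to 1.5 FPKM (6 to 173 reads). It was 15.2 times in AdKO_Diff and 20.9 times in AdKO_Con, on 3 and 2 reads of Col6a2. Col6a3 stood at 3.88 FPKM in AdKO_Con, above Col6a1 there, and rose by 2.13 in PgrKO against F/F (SE 0.40, adjusted p = 0.0138), a call lost without F/F_Diff replicate 2 (adjusted p = 0.0545). Col6a2 and Col6a1 lie 85161 bases apart on chromosome 10. Col5a1, which helps to start type I fibrils, was at 6.43 to 27.6 FPKM in PgrKO and 0.0944 to 1.02 FPKM in F/F libraries and rose by 2.99 (SE 0.44, adjusted p = 0.00773). Col5a2, its partner, which lies 24614 bases from Col3a1 on chromosome 1, rose by 1.43 (SE 0.35, adjusted p = 0.0297), with 2.62 to 5.26 FPKM in PgrKO and an overlapping 0.0643 to 3.29 FPKM in F/F libraries. Its call was lost in 5 of 8 fits that left out 1 library (highest adjusted p 0.0948). Col14a1 was apart from the rest of the class, at 0.609 and 2.18 FPKM in PgrKO_Diff and 0.511 and 1.3 FPKM in PgrKO_Con, and 0.0195 and 0.0264 FPKM in F/F_Diff and 2.27 and 1.39 FPKM in F/F_Con (difference over both states 0.28, SE 0.27, adjusted p = 0.462).

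**Figure D2:**
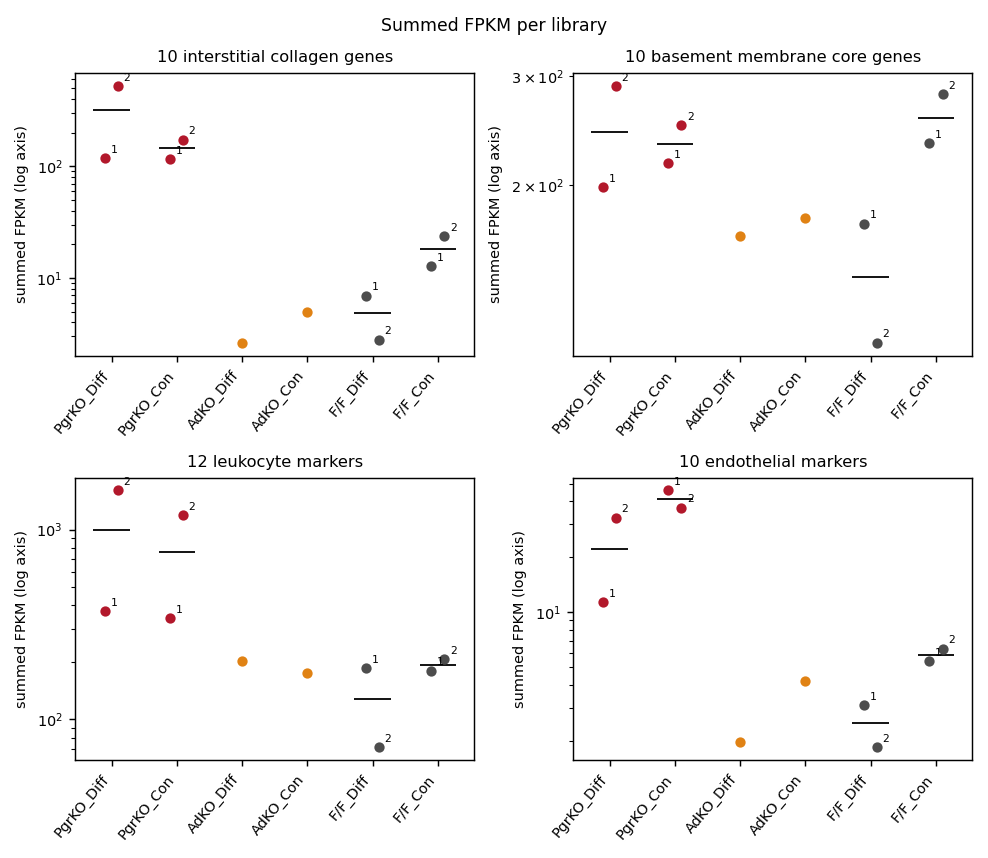
Summed FPKM (log axis) per library of the 10 interstitial collagens, the 10 basement membrane core genes, 12 leukocyte markers and 10 endothelial markers, with groups on the horizontal axis, points numbered by replicate and bars at group means. Interstitial collagens reached 116 to 522 FPKM in PgrKO and at most 23.6 FPKM elsewhere, and the basement membrane sums of PgrKO, at 198 to 289 FPKM, overlapped those of F/F, at 111 to 280.5 FPKM.

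Basement membrane genes split by component. The core class held type IV collagens, laminin chains and nidogens, and of its 9 tested members 5 were higher in PgrKO than in F/F over both states (Col4a1, Col4a2, Lamb3, Nid1 and Nid2) and Lama5 was lower. Among all genes tested 13.7% were higher and 16% lower, and Nid2 was tested through PgrKO groups alone, where it had to be higher. The median difference was 1.45, and 0.73 over all 10 without the filter on low values. The summed level was 198 and 289 FPKM in PgrKO_Diff and 217 and 249.7 FPKM in PgrKO_Con, 165 FPKM in AdKO_Diff and 177 FPKM in AdKO_Con, and 173 and 111 FPKM in F/F_Diff and 234 and 280.5 FPKM in F/F_Con, so the genotypes overlapped. Interstitial collagens amounted to 0.537 to 1.81 times the basement membrane core in PgrKO, 0.0159 and 0.0283 times in AdKO and 0.0253 to 0.0842 times in F/F libraries.

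Col4a1, the alpha-1 chain of the type IV network, was at 55.7 and 70 FPKM in PgrKO_Diff and 41.4 and 44.6 FPKM in PgrKO_Con, 13.1 FPKM in AdKO_Diff and 6.37 FPKM in AdKO_Con, and 13.7 and 4.36 FPKM in F/F_Diff and 20.1 and 16 FPKM in F/F_Con. Col4a2, the alpha-2 chain, was at 28.5 and 53.6 FPKM in PgrKO_Diff and 26.5 and 31.7 FPKM in PgrKO_Con, 8.75 FPKM in AdKO_Diff and 4.56 FPKM in AdKO_Con, and 9.97 and 3.58 FPKM in F/F_Diff and 15.7 and 14.5 FPKM in F/F_Con. The PgrKO libraries did not overlap the others for either gene. Over both states Col4a1 was 2.03 higher in PgrKO than in F/F (SE 0.32, adjusted p = 0.0088) and Col4a2 was 1.70 higher (SE 0.32, adjusted p = 0.0145), a call lost without F/F_Con replicate 2 (adjusted p = 0.0534). Both genes were above 1 FPKM in every F/F library, unlike most interstitial collagens. Col4a1 was 1.31 to 1.95 times Col4a2 in PgrKO, 1.49 and 1.4 times in AdKO and 1.1 to 1.38 times in F/F libraries.

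Col4a1 and Col4a2 lie head to head on chromosome 8, Col4a1 on the minus strand at chr8:11198423-11312826 and Col4a2 on the plus strand at chr8:11312805-11449287, and their models overlap by 22 bases. The promoter window of Col4a2 is shown because it shares 78 bases, in capitals, with that of Col4a1.
Col4a2, chr8:11312555-11312854, plus strand: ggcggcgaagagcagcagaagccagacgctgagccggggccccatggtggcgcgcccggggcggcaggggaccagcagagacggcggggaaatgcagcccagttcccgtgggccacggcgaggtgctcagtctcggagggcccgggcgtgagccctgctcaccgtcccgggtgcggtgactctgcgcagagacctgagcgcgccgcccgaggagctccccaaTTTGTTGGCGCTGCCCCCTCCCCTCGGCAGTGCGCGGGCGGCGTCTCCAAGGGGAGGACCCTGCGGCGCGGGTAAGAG
The capitals span chr8:11312777-11312854 and are the bases that both windows hold, read here on the strand of Col4a2. Both genes have windows with CCAAT and GGGCGG, and neither has one with TATAAA.

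Laminins assemble from an alpha, a beta and a gamma chain, and the chains went different ways. Lama5, an alpha chain of epithelial basement membranes with the highest mean FPKM of the core class, was at 48.8 and 37.6 FPKM in PgrKO_Diff and 55.9 and 62.2 FPKM in PgrKO_Con, 65.7 FPKM in AdKO_Diff and 79 FPKM in AdKO_Con, and 72 and 55 FPKM in F/F_Diff and 98 and 132 FPKM in F/F_Con. It was the single member to pass as lower in PgrKO over both states and fell by 0.74 on the log2 scale (SE 0.16, adjusted p = 0.0201), with overlapping ranges and its call lost without F/F_Con replicate 2, F/F_Diff replicate 1 or PgrKO_Con replicate 1 (highest adjusted p 0.068). Lamc1, the gamma chain of most laminins, was at 26.3 and 35.5 FPKM in PgrKO_Diff and 27.7 and 31.5 FPKM in PgrKO_Con, 20.3 FPKM in AdKO_Diff and 31.2 FPKM in AdKO_Con, and 22.8 and 12.2 FPKM in F/F_Diff and 47.4 and 74 FPKM in F/F_Con. All PgrKO values lay between those of F/F_Diff replicate 1 and F/F_Con replicate 1, and the difference over both states was -0.07 (SE 0.24, adjusted p = 0.841). Lamb3, the beta chain of the laminin that anchors epithelia, was at 16.8 to 40.1 FPKM in PgrKO, 31.8 and 28.1 FPKM in AdKO and 4.2 to 18.3 FPKM in F/F libraries, and rose by 1.45 in PgrKO (SE 0.29, adjusted p = 0.017), a call lost in 3 of 8 fits without 1 library.

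Lama3, the alpha partner of Lamb3, was at 2.59 to 11.3 FPKM in PgrKO and 6.88 to 20 FPKM in F/F libraries (-0.82, SE 0.38, adjusted p = 0.156). Lamb1 was at 12.9 to 26 FPKM in PgrKO and 12.4 to 29.8 FPKM in F/F libraries (-0.19, SE 0.22, adjusted p = 0.536). Nid1 and Nid2 encode nidogens, which link laminin to type IV collagen. Nid1 was at 5.94 to 19.8 FPKM in PgrKO, 0.207 and 0.322 FPKM in AdKO and 0.231 to 6.64 FPKM in F/F libraries (1.76, SE 0.51, adjusted p = 0.0465). Nid2 was at 0.74 to 7.54 FPKM in PgrKO, 0.0816 and 0.272 FPKM in AdKO and 0.0972 to 0.544 FPKM in F/F libraries (1.82, SE 0.52, adjusted p = 0.0442). Both calls were near the threshold, and leaving out 1 library ended that of Nid1 in 7 of 8 fits and that of Nid2 in 6 of 8.

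The 3 other genes of the basement membrane zone did not pass between PgrKO and F/F over both states. Hspg2, the perlecan core protein, was at 28.9 and 79.9 FPKM in PgrKO_Diff and 27.8 and 54.5 FPKM in PgrKO_Con, 24.5 FPKM in AdKO_Diff and 21.6 FPKM in AdKO_Con, and 29.5 and 18.1 FPKM in F/F_Diff and 126 and 129.7 FPKM in F/F_Con. Both F/F_Con libraries stood above all other 8. Col18a1, the source of endostatin, was at 11.1 and 17.5 FPKM in PgrKO_Diff and 24.5 and 30.9 FPKM in PgrKO_Con, 21.5 FPKM in AdKO_Diff and 18.9 FPKM in AdKO_Con, and 16.4 and 20 FPKM in F/F_Diff and 24.2 and 58 FPKM in F/F_Con, with overlap between genotypes. Col15a1, a related collagen of vessel and muscle basement membranes, was at 3.23 and 12.4 FPKM in PgrKO_Diff and 4.64 and 6.55 FPKM in PgrKO_Con, 0.625 FPKM in AdKO_Diff and 0.599 FPKM in AdKO_Con, and 2.81 and 3.97 FPKM in F/F_Diff and 1.13 and 1.1 FPKM in F/F_Con (difference from F/F over both states 1.21, SE 0.37, adjusted p = 0.0536).

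**Figure D3:**
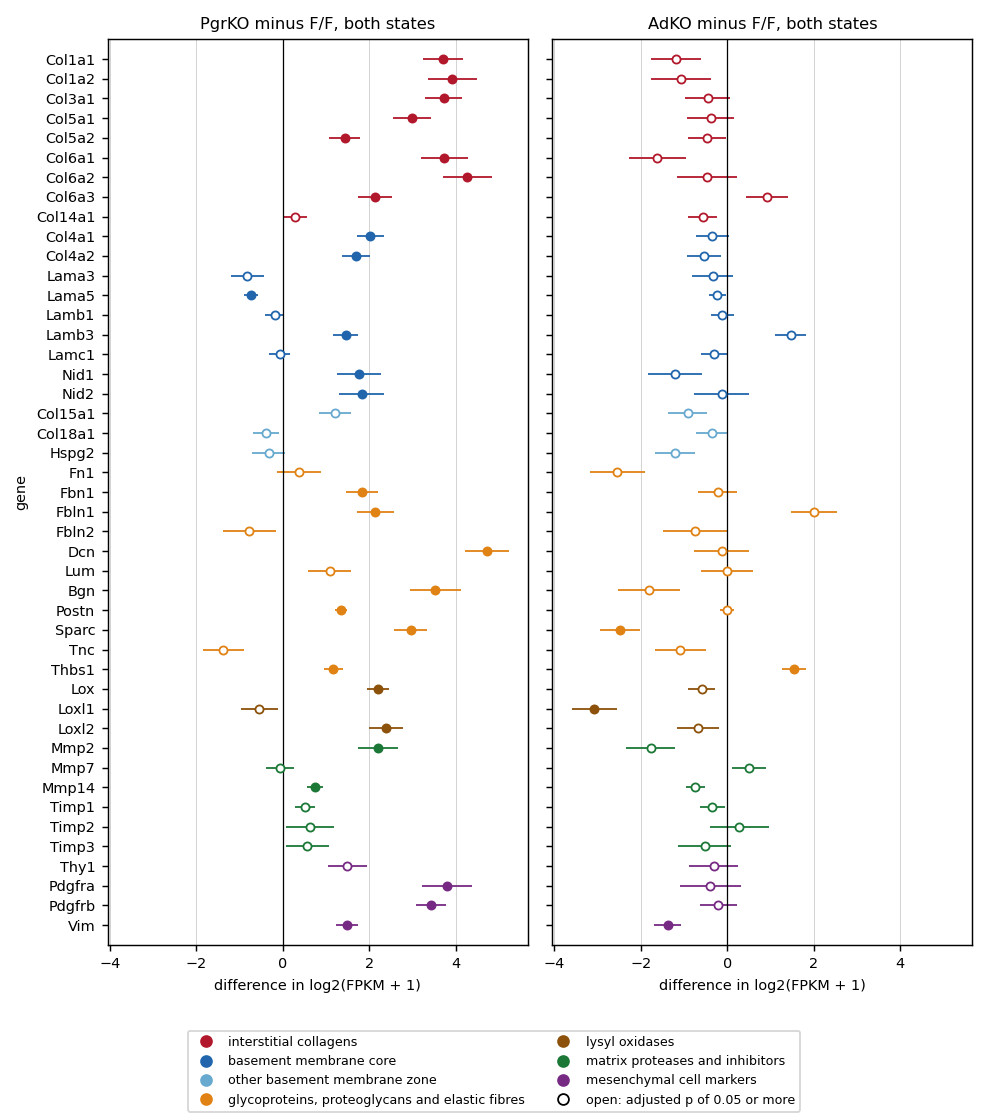
Difference in log2(FPKM + 1) over both states for the 45 members tested, PgrKO minus F/F on the left and AdKO minus F/F on the right, with standard errors from limma, filled points for an adjusted p under 0.05 and colours by class. Both panels use the same F/F libraries. On the left Col1a1 lies at 3.70, Col4a1 at 2.03 and Lama5 at -0.74, and on the right 4 points are filled.

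Among matrix glycoproteins, proteoglycans and elastic fibre genes, 7 of 11 tested were higher in PgrKO than in F/F over both states and 0 lower. They were Fbn1, Fbln1, Dcn, Bgn, Postn, Sparc and Thbs1, and the median of the class was 1.34. Among all genes tested 13.7% were higher and 16% lower. Fbn1, Dcn, Lum and Postn were tested through PgrKO groups alone, where they had to be higher. Fn1, fibronectin, with the highest mean FPKM of the class, did not pass. It was at 92.9 and 365 FPKM in PgrKO_Diff and 127 and 239.9 FPKM in PgrKO_Con, 24.3 FPKM in AdKO_Diff and 21.6 FPKM in AdKO_Con, and 107 and 43.7 FPKM in F/F_Diff and 301 and 259.7 FPKM in F/F_Con (difference from F/F over both states 0.37, SE 0.52, adjusted p = 0.614). PgrKO and F/F libraries overlapped, and both AdKO libraries were below all others.

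Dcn, decorin, a small proteoglycan that binds type I fibrils, was at 21.5 and 97.9 FPKM in PgrKO_Diff and 11.2 and 26.5 FPKM in PgrKO_Con, 0.0434 FPKM in AdKO_Diff and 0 FPKM in AdKO_Con, and 0.082 and 0 FPKM in F/F_Diff and 0.0287 and 0.42 FPKM in F/F_Con. Over both states it was 4.71 higher in PgrKO than in F/F (SE 0.51, adjusted p = 0.00475), and the lowest PgrKO library was above the other 6. Postn, periostin, a fibroblast matrix protein, had the smallest p of the class at low levels, 1.17 and 1.61 FPKM in PgrKO_Diff and 2.14 and 1.36 FPKM in PgrKO_Con, 0 FPKM in AdKO_Diff and 0 FPKM in AdKO_Con, and 0.00786 and 0 FPKM in F/F_Diff and 0.00642 and 0.00829 FPKM in F/F_Con (difference from F/F 1.34, SE 0.14, adjusted p = 0.00443). Thbs1, thrombospondin-1, which binds matrix and cells, was at 98.7 and 138 FPKM in PgrKO_Diff and 80.5 and 83 FPKM in PgrKO_Con, 209.6 FPKM in AdKO_Diff and 77.1 FPKM in AdKO_Con, and 59.7 and 90.5 FPKM in F/F_Diff and 19.2 and 32 FPKM in F/F_Con. It was 1.17 higher in PgrKO than in F/F over both states (SE 0.23, adjusted p = 0.0147) and was higher in AdKO too.

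Sparc and Lum are given per library after their values were seen. Sparc, a collagen-binding glycoprotein, was at 51.9 and 146 FPKM in PgrKO_Diff and 81.8 and 92.8 FPKM in PgrKO_Con, 0.423 FPKM in AdKO_Diff and 1.92 FPKM in AdKO_Con, and 4.17 and 1.5 FPKM in F/F_Diff and 32.9 and 37.3 FPKM in F/F_Con (difference from F/F over both states 2.95, SE 0.38, adjusted p = 0.00565). Lum, lumican, whose gene lies 46984 bases from Dcn on chromosome 10, was at 0.59 and 6.59 FPKM in PgrKO_Diff and 0 and 0.662 FPKM in PgrKO_Con and had 0 reads in all 6 AdKO and F/F libraries, which allowed at most 0.103 FPKM. It did not pass (1.08, SE 0.49, adjusted p = 0.146), and in PgrKO_Con replicate 1, where Lum had 0 reads, Dcn was at 11.2 FPKM. Bgn, a proteoglycan related to decorin, rose by 3.52 (SE 0.59, adjusted p = 0.0101), Fbn1, the fibrillin of microfibrils, by 1.82 (SE 0.37, adjusted p = 0.0174) and the fibulin gene Fbln1 by 2.14 (SE 0.43, adjusted p = 0.0166). The calls of Fbn1 and Fbln1 were lost in 6 and 3 of 8 fits without 1 library. Fbln2, another fibulin, and Tnc, tenascin-C, had differences of -0.77 (adjusted p = 0.375) and -1.38 (adjusted p = 0.0751).

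Lysyl oxidases cross-link collagen and elastin, and the 3 members differed. Lox was at 4.84 and 11 FPKM in PgrKO_Diff and 4.66 and 4.92 FPKM in PgrKO_Con, 0.0177 FPKM in AdKO_Diff and 0 FPKM in AdKO_Con, and 0.472 and 0.0774 FPKM in F/F_Diff and 0.667 and 1.01 FPKM in F/F_Con (difference from F/F over both states 2.20, SE 0.25, adjusted p = 0.00506). Loxl2 was at 7.07 and 26.6 FPKM in PgrKO_Diff and 4.2 and 4.39 FPKM in PgrKO_Con, 0.0781 FPKM in AdKO_Diff and 0.0306 FPKM in AdKO_Con, and 0.734 and 0.148 FPKM in F/F_Diff and 0.982 and 1.08 FPKM in F/F_Con (difference 2.39, SE 0.39, adjusted p = 0.00959). For both genes every PgrKO library was above every other library, but Lox was tested through PgrKO groups alone, where it had to be higher. Loxl1 was highest in F/F_Con instead, with 3.5 and 15.7 FPKM in PgrKO_Diff and 4.45 and 7.09 FPKM in PgrKO_Con, 0.23 FPKM in AdKO_Diff and 0.401 FPKM in AdKO_Con, and 3.94 and 2.23 FPKM in F/F_Diff and 29 and 30.9 FPKM in F/F_Con (difference -0.55, SE 0.43, adjusted p = 0.366).

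Of 6 matrix proteases and inhibitors, Mmp2 and Mmp14 were higher in PgrKO than in F/F over both states, against 13.7% of all genes tested. Mmp2, a gelatinase, was at 17.9 and 35.6 FPKM in PgrKO_Diff and 17.2 and 16.3 FPKM in PgrKO_Con, 0.351 FPKM in AdKO_Diff and 0.392 FPKM in AdKO_Con, and 3.91 and 1.83 FPKM in F/F_Diff and 10.4 and 2.05 FPKM in F/F_Con (difference 2.20, SE 0.47, adjusted p = 0.0193). Mmp14, the membrane protease that activates Mmp2, was at 39.3 and 52.9 FPKM in PgrKO_Diff and 38.9 and 61.7 FPKM in PgrKO_Con, 16 FPKM in AdKO_Diff and 16.4 FPKM in AdKO_Con, and 18.9 and 18 FPKM in F/F_Diff and 45.7 and 37.8 FPKM in F/F_Con (difference 0.75, SE 0.18, adjusted p = 0.0273). Mmp2 was above every other library in all 4 PgrKO libraries, and Mmp14 overlapped between PgrKO and F/F. Leaving out 1 library ended the call of Mmp14 in 6 of 8 fits and that of Mmp2 in 4 of 8 (highest adjusted p 0.0924 and 0.0696).

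Mmp7, matrilysin, an epithelial protease, had the highest mean FPKM of the class, at 290.1 and 117 FPKM in PgrKO_Diff and 205 and 149.7 FPKM in PgrKO_Con, 288 FPKM in AdKO_Diff and 247 FPKM in AdKO_Con, and 94.5 and 96.6 FPKM in F/F_Diff and 449.9 and 308 FPKM in F/F_Con. Timp2, an inhibitor that also takes part in the activation of Mmp2, was at 31.9 and 140.3 FPKM in PgrKO_Diff and 48.9 and 155 FPKM in PgrKO_Con, 42.5 FPKM in AdKO_Diff and 83.4 FPKM in AdKO_Con, and 24 and 22 FPKM in F/F_Diff and 87.5 and 123 FPKM in F/F_Con. Both overlapped between genotypes. Over both states Mmp7 differed from F/F by -0.07 (SE 0.32, adjusted p = 0.886), Timp2 by 0.63 (SE 0.56, adjusted p = 0.424), Timp1 by 0.51 (SE 0.24, adjusted p = 0.151) and Timp3 by 0.56 (SE 0.50, adjusted p = 0.425).

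Of 4 mesenchymal cell markers 3 were higher in PgrKO than in F/F over both states, against 13.7% of all genes tested. Pdgfrb and Thy1 were tested through PgrKO groups alone, where they had to be higher. Pdgfra, the platelet-derived growth factor receptor of many fibroblasts, was at 11 and 56.3 FPKM in PgrKO_Diff and 11.5 and 24.5 FPKM in PgrKO_Con, 0.211 FPKM in AdKO_Diff and 0.157 FPKM in AdKO_Con, and 0.334 and 0.123 FPKM in F/F_Diff and 0.24 and 2.15 FPKM in F/F_Con (difference 3.80, SE 0.58, adjusted p = 0.00836). Pdgfrb, the related receptor of fibroblasts and pericytes, was at 8.88 and 28.1 FPKM in PgrKO_Diff and 8.45 and 9.63 FPKM in PgrKO_Con, 0.0308 FPKM in AdKO_Diff and 0.0604 FPKM in AdKO_Con, and 0.162 and 0.0563 FPKM in F/F_Diff and 0.102 and 0.566 FPKM in F/F_Con (difference 3.43, SE 0.35, adjusted p = 0.00443). Neither gene overlapped between PgrKO and the other libraries. Thy1, a surface protein of fibroblasts and some leukocytes, was at 1.05 to 11.4 FPKM in PgrKO and at most 0.939 FPKM in F/F libraries (1.49, SE 0.46, adjusted p = 0.0543).

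Vim, vimentin, the intermediate filament of mesenchymal cells that many cultured epithelial cells also make, was at 50.8 and 50.3 FPKM in PgrKO_Diff and 80.9 and 38.7 FPKM in PgrKO_Con, 11.2 FPKM in AdKO_Diff and 3.61 FPKM in AdKO_Con, and 46.9 and 63.6 FPKM in F/F_Diff and 4.88 and 7.0 FPKM in F/F_Con. F/F_Diff was thus in the range of PgrKO, and F/F_Con nearer to AdKO. Vim was 3.06 higher in PgrKO_Con than in F/F_Con (SE 0.36, adjusted p = 0.0441) and differed by -0.11 between PgrKO_Diff and F/F_Diff (SE 0.36, adjusted p = 0.848). Over both states it was 1.47 higher in PgrKO (SE 0.26, adjusted p = 0.0112). In F/F it rose by 3.02 on differentiation (SE 0.36, adjusted p = 0.00995), whereas PgrKO_Diff differed from PgrKO_Con by -0.15 (SE 0.36, adjusted p = 0.949). The PgrKO response minus the F/F response was -3.17 (SE 0.51, adjusted p = 0.0428). For this signed difference 0.499% of all genes tested passed with a positive value, 3.91% with a negative value and 4.41% with either. Vim was the single member of 45 to pass for this difference of responses, against 12 members at an unadjusted p under 0.05. It passed in 1 of 8 fits that left out 1 library (without PgrKO_Con replicate 1, highest adjusted p 0.139) and did not pass with voom (adjusted p = 0.0646).

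The promoter window of Vim is shown because Vim passed for the difference of responses in the fit of all libraries. CCAAT and TATAAA, on either strand, are in capitals.
Vim, chr2:13574061-13574360, plus strand: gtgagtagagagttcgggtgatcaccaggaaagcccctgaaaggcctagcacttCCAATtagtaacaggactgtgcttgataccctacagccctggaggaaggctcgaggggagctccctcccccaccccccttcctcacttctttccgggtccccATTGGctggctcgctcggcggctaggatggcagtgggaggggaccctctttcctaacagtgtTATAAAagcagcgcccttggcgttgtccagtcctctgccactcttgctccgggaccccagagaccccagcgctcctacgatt
It holds CCAAT 2 times and TATAAA 1 time, unlike the Col1a2 window, where TATAAA was absent.

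**Figure D4:**
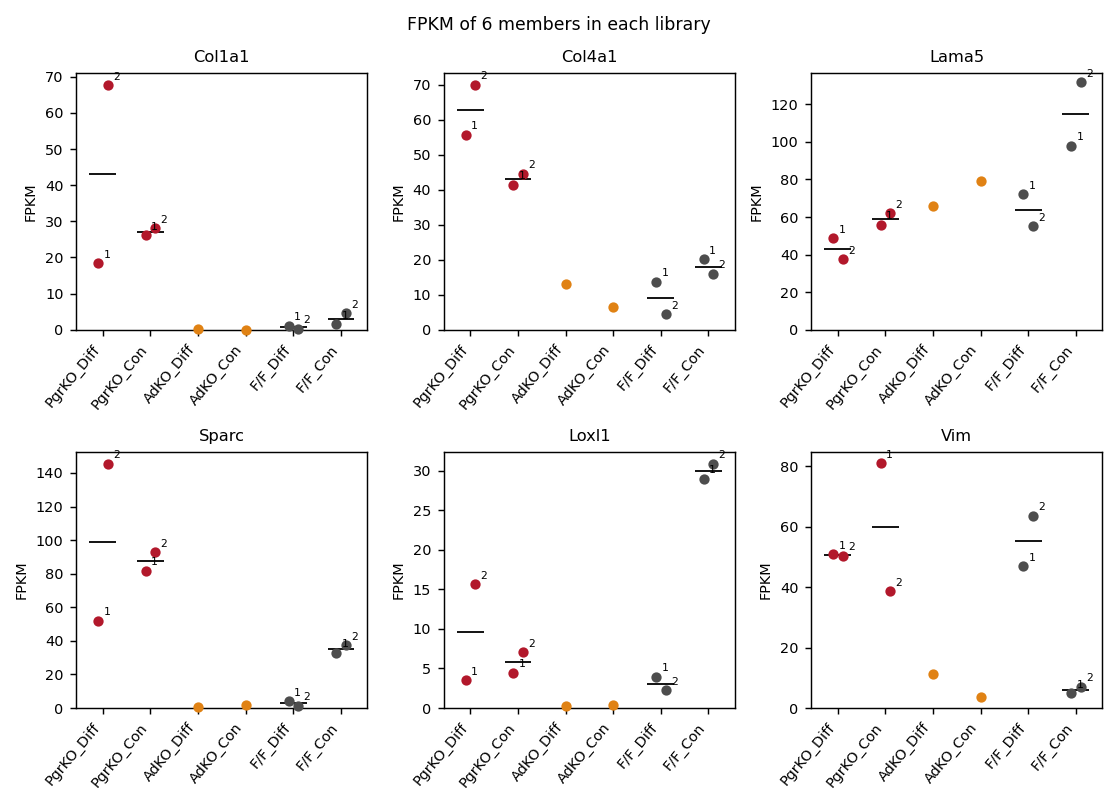
FPKM (linear axes from 0) of Col1a1, Col4a1, Lama5, Sparc, Loxl1 and Vim in each library, points numbered by replicate, bars at group means. Col1a1 and Col4a1 are highest in PgrKO, at 18.5 to 67.6 and 41.4 to 70 FPKM, Lama5 and Loxl1 are highest in F/F_Con, and Vim is high in PgrKO and F/F_Diff.

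Differentiation was compared within each genotype. In F/F organoids 10 of 45 members fell and 2 rose in F/F_Diff relative to F/F_Con, where 6.89% of all genes tested fell, 12.4% rose and 19.3% did either. On the log2 scale Sparc fell by 3.32, Tnc fell by 2.97, Loxl1 fell by 2.95, Hspg2 fell by 2.42 and Timp1 fell by 2.14 (SEs 0.53, 0.67, 0.60, 0.54 and 0.33). Mmp7 fell by 1.95, Lamc1 fell by 1.76, Col14a1 fell by 1.45, Mmp14 fell by 1.13 and Lama5 fell by 0.84 (SEs 0.45, 0.34, 0.38, 0.25 and 0.23). Their adjusted p lay between 0.0129 (Timp1) and 0.0496 (Lama5). Vim rose, and Thbs1 rose by 1.53 (SE 0.32, adjusted p = 0.0252). The median difference of the 45 members was -0.99, against -0.02 over all genes tested. Of the 45, 40 were below 0, and the share of all genes below 0 was not counted. Both F/F_Diff libraries were below both F/F_Con libraries for 26 of the 45, against 34.4% of all genes tested. Members passing numbered 2 once F/F_Con replicate 1 was left out and 0 once F/F_Con replicate 2 was, and 6 and 0 once replicate 1 or replicate 2 of F/F_Diff was.

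In PgrKO organoids 0 of 45 members passed with limma between PgrKO_Diff and PgrKO_Con, against 0% of all genes tested. At an unadjusted p under 0.05 there were 2 members and 1179 genes, and with voom 0 members passed. The interstitial collagens had a median difference of 0.50, against 0.01 over all genes tested, with all 9 tested above 0. The PgrKO_Diff libraries differed from each other. Replicate 2 was above replicate 1 for 40 of the 45 members, by a median of 2.77 times over the 45 and of 3.63 times over the interstitial collagens. The same count and ratio were not taken over all genes tested, so they do not set the members apart from other genes. Sparc, which fell in F/F, differed by 0.00 in PgrKO (SE 0.53, adjusted p = 1), and Loxl1 by 0.38 (SE 0.60, adjusted p = 0.916). The differences of responses of Sparc and Loxl1, 3.32 and 3.34, did not pass (adjusted p = 0.0635 and 0.084).

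**Figure D5:**
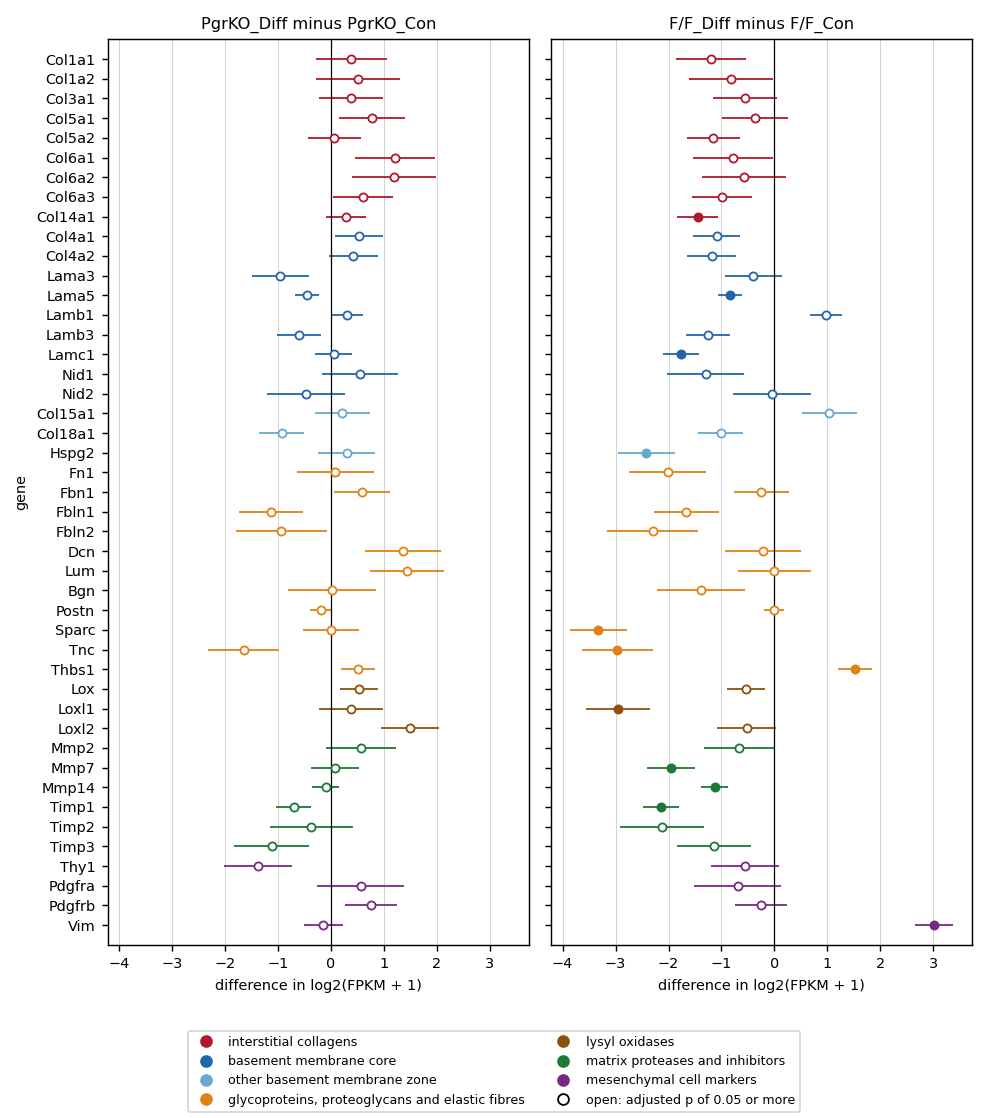
Difference in log2(FPKM + 1) between differentiated and undifferentiated organoids for the 45 members tested, in PgrKO on the left and in F/F on the right, with standard errors from limma and filled points for an adjusted p under 0.05. For PgrKO 0 points are filled, and for F/F 10 filled points lie below 0 and those of Vim and Thbs1 above 0.

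In AdKO organoids, where Cre was added in culture, 1 member was higher than in F/F over both states (Thbs1) and 3 were lower (Loxl1, Sparc and Vim), where 4.59% of all genes tested were higher, 5.92% lower and 10.5% changed either way. Thbs1 rose by 1.55 (SE 0.28, adjusted p = 0.0321). On the log2 scale Loxl1 fell by 3.08 (SE 0.52, adjusted p = 0.0302), Sparc fell by 2.48 (SE 0.46, adjusted p = 0.0333) and Vim fell by 1.38 (SE 0.31, adjusted p = 0.0459). With any single F/F library left out, 0 members passed. Of the 9 interstitial collagens tested 0 passed, with a median difference of -0.47. Between PgrKO and AdKO over both states, 18 of 45 members were higher in PgrKO and 0 lower, against 1.14% and 0.923% of all genes tested (2.06% either way). Of the 34 members at 1 FPKM outside PgrKO, 11 were higher. Sparc differed by 5.43 (SE 0.46, adjusted p = 0.0188), Col6a1 by 5.35 (SE 0.65, adjusted p = 0.0283), Vim by 2.85 (SE 0.31, adjusted p = 0.0262) and Col4a1 by 2.38 (SE 0.39, adjusted p = 0.0475), and of the laminin chains 0 passed. The count fell to 0 without F/F_Con replicate 1 or without F/F_Con replicate 2, to 2 without F/F_Diff replicate 1, to 1 without F/F_Diff replicate 2, PgrKO_Con replicate 1 or PgrKO_Con replicate 2, and to 2 with voom.

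Markers of some other cell types were also higher in PgrKO than in F/F, and their part in the result was not tested. Of 12 leukocyte markers, all tested, 6 were higher in PgrKO than in F/F over both states, against 13.7% of all genes tested. Ptprc, Adgre1, Itgam, C1qa, C1qb, C1qc, Tyrobp and Fcer1g were tested through PgrKO groups alone, where they had to be higher. The summed level of the 12 was 372 and 1608 FPKM in PgrKO_Diff and 341 and 1188 FPKM in PgrKO_Con, 203 and 175 FPKM in AdKO, and 71.4 to 207 FPKM in F/F libraries. Cd14, a lipopolysaccharide co-receptor, was at 52.4 to 259 FPKM in the 10 libraries and made up most of the sum outside the PgrKO replicate 2 libraries. Without it, a choice made after seeing the data, the sum was 113 and 1435 FPKM in PgrKO_Diff and 162 and 1068 FPKM in PgrKO_Con, 17.4 and 30.6 FPKM in AdKO, and 19.1 to 35.3 FPKM in F/F libraries. Lyz2, a lysozyme of macrophages, was at 78.2 and 874 FPKM in PgrKO_Diff and 127 and 720.1 FPKM in PgrKO_Con, against at most 13.3 FPKM in AdKO and F/F libraries, so replicate 2 of each PgrKO group stood apart. Ptprc, the common leukocyte antigen, was at 0.134 and 2.93 FPKM in PgrKO_Diff and 0.169 and 1.14 FPKM in PgrKO_Con and at 0 to 0.167 FPKM in AdKO and F/F libraries. When PgrKO_Diff replicate 2 and PgrKO_Con replicate 2 were both left out, a choice made after seeing the data, 21 of the 45 members passed between PgrKO and F/F over both states, 19 higher and 2 lower. Of the 28 that passed with all libraries 17 were kept and 11 lost. The 9 that reached 1 FPKM through PgrKO groups alone, where they had to be higher, were all kept. Of the other 19, Col1a1, Col1a2, Col6a1, Fbln1, Loxl2, Pdgfra, Sparc and Vim were kept, with differences such as 3.22 for Col1a1 (adjusted p = 0.0273) and 2.54 for Sparc (adjusted p = 0.0263). The 11 lost were Col5a2, Col6a3, Col4a1, Col4a2, Lama5, Lamb3, Nid1, Bgn, Thbs1, Mmp2 and Mmp14. That fit had 1 library in each PgrKO group, and the differences of these 11 kept their sign and were smaller in size. Col4a1 differed by 1.92 there and by 2.03 with all libraries, and Col4a2 by 1.42 and 1.70. Bgn differed by 3.21 and 3.52, Nid1 by 1.32 and 1.76, and Mmp14 by 0.48 and 0.75. Thy1 and Col12a1, higher, and Tnc and Loxl1, lower, passed in that fit and not with all libraries, where Col12a1 was not tested.

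Of 10 endothelial markers 8 were tested and 4 were higher in PgrKO than in F/F over both states, against 13.7% of all genes tested. Pecam1, Kdr, Tie1, Emcn and Cldn5 were tested through PgrKO groups alone, where they had to be higher. The sum of the 10 was 11.3 and 32.7 FPKM in PgrKO_Diff and 46 and 36.9 FPKM in PgrKO_Con, 1.95 and 4.21 FPKM in AdKO, and 1.84 to 6.32 FPKM in F/F libraries. Pecam1, a junction protein of vessels, was at 0.212 and 3.75 FPKM in PgrKO_Diff and 3.79 and 4.52 FPKM in PgrKO_Con, and Cdh5, the endothelial cadherin, was at 9.08 and 9.62 FPKM in PgrKO_Diff and 26.1 and 18.9 FPKM in PgrKO_Con. In PgrKO_Diff replicate 1 most of the sum was thus Cdh5. Pecam1, Tie1 and Emcn were there within the range of the F/F libraries (Pecam1 0.0396 to 0.253 FPKM). Cldn5 was at 0.133 FPKM there and at most 0.0966 FPKM in F/F libraries. Of 10 smooth muscle and pericyte markers 2 were tested, Des and Acta2, both higher in PgrKO over both states (2.24, SE 0.27, adjusted p = 0.00512, and 1.89, SE 0.32, adjusted p = 0.0107). Des was tested through PgrKO groups alone, where it had to be higher. Acta2 was also higher in AdKO than in F/F over both states (1.99, SE 0.39, adjusted p = 0.0365). The list summed to 7.33 to 25.3 FPKM in PgrKO, 9.03 and 8.65 FPKM in AdKO and 1.3 to 5.49 FPKM in F/F libraries, and Myh11, the myosin of smooth muscle, was at 0 to 0.55 FPKM in all 10. Of 5 mesothelial markers 1 was higher and 2 lower, against 13.7% and 16% of all genes tested. Lrrn4 and Upk1b were tested through PgrKO groups alone, where they had to be higher. The sum of the 5 was 23.5 to 140.5 FPKM in PgrKO, 58.3 and 159.9 FPKM in AdKO and 55.6 to 281 FPKM in F/F libraries, with overlap. Most of it in every library was Msln and Wt1, the 2 that were lower. Upk3b, the 1 that was higher, did not overlap. It was at 2.43 to 11.4 FPKM in PgrKO, 0.12 and 0.679 FPKM in AdKO and 0.0194 to 2.33 FPKM in F/F libraries.

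Fibroblast markers outside the set did not all follow it. Of 12, 7 were tested, 4 were higher in PgrKO than in F/F over both states and Mfap4 was lower, against 13.7% and 16% of all genes tested. Fap, Prrx1 and Igf1 were tested through PgrKO groups alone, where they had to be higher. The list summed to 17.8 to 87.4 FPKM in PgrKO, 2.7 and 1.56 FPKM in AdKO and 12.9 to 58.1 FPKM in F/F libraries. In F/F_Con most of the sum, 26.7 and 58.1 FPKM, was Serpinf1, at 25.6 and 53.3 FPKM. In F/F_Diff most of it was Serpinf1 and Mfap4, so the overlap with PgrKO rests on these genes. Fap, a fibroblast surface protease, rose by 1.09 (SE 0.20, adjusted p = 0.0125), and Cd34, shared by stromal fibroblasts and endothelium, by 3.10 (SE 0.68, adjusted p = 0.0208). Dpt, dermatopontin, a marker of many tissue fibroblasts, was at 0 to 0.0495 FPKM in the 10 libraries. Mfap4, of elastic fibres, was at 0.0327 and 0.0888 FPKM in PgrKO_Diff and 0.0731 and 0 FPKM in PgrKO_Con, 0 FPKM in AdKO_Diff and 0 FPKM in AdKO_Con, and 3.2 and 5.16 FPKM in F/F_Diff and 0.233 and 0.0375 FPKM in F/F_Con. It fell by 1.19 on the log2 scale in PgrKO (SE 0.16, adjusted p = 0.00614) and fell by 1.26 in AdKO (SE 0.19, adjusted p = 0.0265), both against the same F/F libraries. Serpinf1, a secreted serpin, was at 3.73 to 12.8 FPKM in PgrKO, 1.65 and 1.12 FPKM in AdKO and 4.65 to 53.3 FPKM in F/F libraries (difference from F/F -1.30, SE 0.44, adjusted p = 0.0721).

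Other genes of the matrix were counted by list in the same comparison, PgrKO against F/F over both states. Among all genes tested, 13.7% were higher there, 16% lower and 29.6% changed either way. Of 22 tested genes of collagen processing, 9 were higher and 2 lower, with a median of 0.55. P4ha3, Adamts2 and Adamts14 were tested through PgrKO groups alone, where they had to be higher. Bmp1, the protease that trims fibrillar procollagens, rose by 1.36 (SE 0.20, adjusted p = 0.00791) and Adamts14, a procollagen peptidase, by 1.92 (SE 0.29, adjusted p = 0.00826). P4ha1, a prolyl hydroxylase subunit, fell by 1.59 on the log2 scale in PgrKO (SE 0.22, adjusted p = 0.00632) and fell by 1.81 in AdKO (SE 0.26, adjusted p = 0.0256), both against the same F/F libraries. On differentiation in F/F 0 of the 22 rose and 5 fell, against 12.4% and 6.89% of all genes tested. Among the 5 were P3h1 and Adamts3 (-1.43 and -1.10, adjusted p = 0.0184 and 0.0189). Of 14 tested laminins, collagens and basement membrane genes outside the set, 3 were higher and 4 lower in PgrKO, with a median of 0.20. Lama2, Lamc3 and Col8a1 were tested through PgrKO groups alone, where they had to be higher. Col4a5 and Col4a6, type IV chains of other networks than that of Col4a1 and Col4a2, differed by -1.30 (SE 0.22, adjusted p = 0.0101) and -1.42 (SE 0.18, adjusted p = 0.00551). Col16a1, a collagen that associates with fibrils, was at 90.5 and 40.3 FPKM in PgrKO_Diff and 20.4 and 11.6 FPKM in PgrKO_Con, 11.7 FPKM in AdKO_Diff and 3.7 FPKM in AdKO_Con, and 14.2 and 7.67 FPKM in F/F_Diff and 2.04 and 1.73 FPKM in F/F_Con (difference from F/F 2.47, SE 0.33, adjusted p = 0.00632), and rose on differentiation in F/F by 1.99 (SE 0.47, adjusted p = 0.0356). Agrn, agrin, and Lamb2 fell there (-1.55 and -1.33, adjusted p = 0.0168 and 0.00971).

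Of 21 tested matrix receptors, 4 were higher and 1 lower in PgrKO than in F/F over both states, with a median of -0.01. Among all genes tested, 13.7% were higher, 16% lower and 29.6% changed either way, so the receptors did not stand out. Itga8 and Itga9 were tested through PgrKO groups alone, where they had to be higher. Itgb8 and Itgav, chains of an integrin that activates latent TGF-beta, rose by 1.22 (SE 0.12, adjusted p = 0.00443) and 1.31 (SE 0.21, adjusted p = 0.00954), and Itga11, a collagen-binding chain, fell by 0.99 on the log2 scale (SE 0.15, adjusted p = 0.0088). Of 20 tested genes of TGF-beta signalling, 1 was higher and 5 lower, with a median of -0.13, beside the same shares of all genes tested. On the log2 scale Ltbp3, a latent TGF-beta binding protein, fell by 1.40 (SE 0.15, adjusted p = 0.00485), Smad6, an inhibitory Smad, fell by 0.76 (SE 0.12, adjusted p = 0.00929) and Ccn2, a matricellular target gene, fell by 1.54 (SE 0.26, adjusted p = 0.0107). Tgfbi, a matrix protein induced by TGF-beta, fell by 3.53 on differentiation in F/F (SE 0.52, adjusted p = 0.0122). There 6 of the 20 fell and 0 rose, against 6.89% and 12.4% of all genes tested. Of 6 tested genes of epithelial-mesenchymal transition 5 were higher in PgrKO, among them Cdh2, a mesenchymal cadherin (2.33, SE 0.42, adjusted p = 0.0125), and the transcription factors Zeb1 (1.44, SE 0.29, adjusted p = 0.0159) and Zeb2 (1.57, SE 0.34, adjusted p = 0.0198). Zeb1, Zeb2 and Snai2 were tested through PgrKO groups alone, where they had to be higher.

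More than 5% of exon bases were shared with another gene for 6 members. The shares were 21.3% for Timp3, 20.1% for Fbn1, 11.5% for Mmp7, 8.45% for Nid2, 6.21% for Pdgfra and 5.57% for Loxl2, all with genes on the opposite strand, and whether counting used the strand is not given in the sources used here.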

How the data were processed

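RNA of 10 oviduct organoid libraries was sequenced as paired ends. The submitters' processing notes name HISAT2, edgeR and mm10, and the study's methods name Tophat2 and RPKM. The counting tool and versions are not given in the sources used here. The deposited table holds FPKM per gene symbol, normalized by the authors for length and library size. The 1 symbol on more than 1 line was left out. With exon lengths from GENCODE M21, FPKM gave back whole reads (to within 0.01 read) for 99.996% of values or more in each library, and these were used for voom.

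Differences were tested with limma 3.58.1 in R 4.3.3 (trend, 6 group means, log2 with a pseudocount of 1, a filter at 1 FPKM), 2-sided, with Benjamini-Hochberg adjustment over the 15816 genes tested. Tables and plots used Python 3.11.15, pandas 2.3.3, numpy 2.4.6 and matplotlib 3.10.9. Promoter windows came from RefSeq (GRCm38.p6). The members and gene lists were chosen with earlier results of these data known. Levels per library are given for the 2 most abundant members of each class, the 2 with the smallest p in PgrKO against F/F over both states and any member passing for the difference of responses. Of each other list, up to 3 genes with the smallest p in PgrKO against F/F and up to 2 in F/F_Diff against F/F_Con are named. Alternatives were another pseudocount, no filter and a filter at 5 FPKM, other scalings, fits of fewer libraries, the replicate number as a block, voom, a stricter threshold and leaving out single libraries.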

Additional observations from a re-analysis of the deposited data

Results flagged for a closer look

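The differentiation response differed between PgrKO and F/F organoids by the interaction term of the limma fit for 4 genes named above, of which Vim is a member of the set. Vim had a difference of responses of -3.17 (SE 0.51, adjusted p = 0.0428), and Mfap4 of -2.14 (SE 0.32, adjusted p = 0.0428). Itga11 had one of -1.61 (SE 0.31, adjusted p = 0.0486), with 0.0367 and 0.216 FPKM in PgrKO_Diff and 0.0548 and 0.288 FPKM in PgrKO_Con, and 2.95 and 2.85 FPKM in F/F_Diff and 0.555 and 0.127 FPKM in F/F_Con. Lamb2, a laminin beta chain, had one of 1.33 (SE 0.22, adjusted p = 0.0432), with 39.7 and 38.9 FPKM in PgrKO_Diff and 40.5 and 38.2 FPKM in PgrKO_Con, and 18.9 and 22.8 FPKM in F/F_Diff and 48.2 and 60.1 FPKM in F/F_Con. None of these calls held with a pseudocount of 0.1 (adjusted p from 0.0647 to 0.16), without the filter on low values (0.0629 to 0.0844), with the replicate number as a block (0.0757 to 0.0872) or with voom (0.0646 to 0.198). With 1 library left out, Mfap4, Itga11 and Lamb2 passed in 0 of 8 fits (adjusted p from 0.0598 to 0.147) and Vim in 1 of 8. No group had the 4 libraries needed to test for a library far from the others.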

How the results depend on the processing

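No member difference that passed changed direction in any alternative run. At an adjusted p under 0.01 the members passing numbered 11 for PgrKO_Diff against F/F_Diff, 14 for PgrKO against F/F over both states, 1 for F/F_Diff against F/F_Con, and 0 for PgrKO_Con against F/F_Con, the difference of responses, AdKO against F/F and PgrKO against AdKO. Without the filter on low values they numbered 3 for F/F_Diff against F/F_Con, 2 for AdKO against F/F, and 0 for PgrKO_Con against F/F_Con and for the difference of responses. With voom they numbered 2 for AdKO against F/F, 2 for PgrKO against AdKO, 2 for PgrKO_Con against F/F_Con and 0 for the difference of responses. A pseudocount of 0.1 gave 2 for PgrKO_Con against F/F_Con and 0 for the difference of responses, and a fit of only the libraries compared gave 0 for PgrKO_Con against F/F_Con. Without PgrKO_Con replicate 2 and PgrKO_Diff replicate 2, chosen after seeing the data, the counts were 6 for PgrKO_Con against F/F_Con and 0 for the difference of responses and for PgrKO against AdKO. With 1 library left out at a time the counts ranged from 8 to 28 for PgrKO_Diff against F/F_Diff, 20 to 30 for PgrKO against F/F, 0 to 4 for PgrKO_Con against F/F_Con, 0 to 13 for F/F_Diff against F/F_Con, 0 to 1 for the difference of responses, 0 to 4 for AdKO against F/F, 0 to 25 for PgrKO against AdKO, and 0 throughout for PgrKO_Diff against PgrKO_Con. The cause was not tested.

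The sources used here do not say that libraries with the same replicate number share an animal or culture. The correlation of their deviations was 0.53 between PgrKO_Con and PgrKO_Diff, whose replicate 2 libraries were also alike in C1qa, a complement gene of macrophages (108 and 77.2 FPKM, against 5.8 and 3.85 FPKM in replicate 1), -0.05 between F/F_Con and F/F_Diff and -0.17 to -0.04 between genotypes. With the replicate number as a block, 28 members passed for PgrKO against F/F over both states, 22 for PgrKO_Diff against F/F_Diff, 10 for F/F_Diff against F/F_Con, and 0 for PgrKO_Con against F/F_Con, PgrKO_Diff against PgrKO_Con, the difference of responses, AdKO against F/F and PgrKO against AdKO. The class median of the basement membrane core over both states was 1.45 with the filter and 0.73 without it, which added Lama1.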
